A study of Mus musculus with 6 samples.

Results

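Type I interferons act on the receptor pair Ifnar1 and Ifnar2 and raise a set of antiviral effector genes. These transcripts were followed here in mouse bone marrow-derived macrophages. The set was a list of 41 gene symbols, drawn up by name, with earlier results of these data known: Ifit1, Ifit2, Ifit3, Isg15, Isg20, Rsad2, Irf7, Irf9, Mx1, Mx2, Oas1a, Oas2, Oas3, Oasl1, Oasl2, Usp18, Stat2, Ifih1, Ddx58, Dhx58, Ddx60, Zbp1, Cmpk2, Ifi44, Ifi44l, Ifi204, Ifi35, Bst2, Xaf1, Phf11b, Trim30a, Trim25, Slfn5, Rtp4, Ifitm3, Parp9, Parp12, Parp14, Dtx3l, Herc6 and Samd9l. All 41 were among the 24054 genes of the count table, and all 41 passed the filter on low counts that left 12689 genes for testing.

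The study compared wild-type C57BL/6 macrophages with macrophages of C57BL/6 mice labelled Kindlin3-integrin mutant, with and without oxLDL, oxidised low-density lipoprotein, which macrophages take up in atherosclerotic plaques. Kindlin-3, the product of Fermt3, binds integrin tails in blood cells and activates integrins. Marrow cells of both genotypes were cultured over 7 days with L929-conditioned medium, a source of macrophage growth factor, and the treated ones then received 50 µg/ml oxLDL for 24 hours. The 6 RNA libraries comprised 1 wild type without and 1 with oxLDL, and 2 mutant without and 2 with oxLDL. The labels do not give the site or kind of the mutation, and they do not state separate animals or cultures for the replicates, so a p-value here measures the spread between libraries alone.

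As background, interferon bound to its receptor activates the kinases Jak1 and Tyk2. These phosphorylate STAT proteins such as Stat2, which join Irf9 in the complex ISGF3, and this binds a DNA element called the interferon-stimulated response element (ISRE), with GAAA repeats spaced by a few bases. In macrophages a low tonic interferon signal keeps many such genes measurable without infection, and the products sense viral nucleic acid, block translation or viral entry, and modify proteins with the ubiquitin-like protein Isg15.

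Counts assigned to genes came to between 11281692 and 24273551 per library, and the shallowest were the mutant untreated libraries. Levels are given as CPM, read counts scaled to a common library size with a normalisation factor. Fermt3 was read in all 6 libraries, at 404 CPM in untreated and 188 CPM in treated wild-type cells, and in the mutant at 239 and 248 CPM without and 146 and 153 CPM with oxLDL, which does not check the genotype because the kind of mutation is not labelled. A set of 10 macrophage markers summed to between 10596 and 30587 CPM. A set of 20 pancreatic genes, foreign to these cells, summed to 275 CPM in the untreated wild-type library and to 206 and 163 CPM in the treated mutant libraries, against 1.86 to 3.45 CPM in the other 3 libraries. A set of 8 markers of plasmacytoid dendritic cells, the cells that make most type I interferon, summed to between 98.8 and 192 CPM. Most of that sum was Tcf4, at 74.4 to 156 CPM, while Siglech did not exceed 0.211 CPM, Ccr9 did not exceed 0.41 CPM and Ly6d had 0 counts in all 6 libraries. Of the 5 markers tested, 2 were lower and 2 higher with oxLDL in the mutant.

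Promoter sequence was examined for the ISRE, the element that ISGF3 binds. Binding to these promoters was not measured. The RefSeq promoter table of build GRCm38.p6, with 250 bases before and 50 after each gene's start, held 31 of the 41 genes. The core motif searched was GAAA, any 2 bases (NN), then GAAA again, on both strands and with overlapping matches counted. It was found in 15 of these 31 (48.4%), against 3.99% of all 27025 genes in the table. A gene with several windows was counted if any of them held a match. A stricter form, with CT after the second GAAA, was found in 9 (29%), against 0.303%, and a looser form that ends in GAA in 19 (61.3%), against 9.76%. Of 39 further interferon-stimulated genes in the promoter table, 10 held the core motif, 4 the stricter form and 13 the looser form. Windows from 8 promoters of genes with different roles are shown 5′ to 3′ along the gene, with 1 match to the core motif in capitals in each. Further matches in the windows of Ifit1, Isg15 and Bst2 are left in lower case. Where the match lies on the opposite strand the capitals read TTTC first.
Ifit1: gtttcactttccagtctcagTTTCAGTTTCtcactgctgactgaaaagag
Ifit3: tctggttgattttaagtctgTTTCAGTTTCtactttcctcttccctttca
Isg15: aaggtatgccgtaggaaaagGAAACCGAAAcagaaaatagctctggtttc
Rsad2: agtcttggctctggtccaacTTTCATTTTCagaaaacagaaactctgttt
Oas3: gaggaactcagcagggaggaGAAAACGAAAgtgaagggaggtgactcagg
Stat2: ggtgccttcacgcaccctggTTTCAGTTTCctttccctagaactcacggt
Ddx60: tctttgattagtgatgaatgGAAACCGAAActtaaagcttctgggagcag
Bst2: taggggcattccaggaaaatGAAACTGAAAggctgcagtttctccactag

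These windows lie upstream of the gene starts. Those on the plus strand are chr19:34640784-34640833 for Ifit1, chr19:34583387-34583436 for Ifit3, chr10:128270256-128270305 for Stat2 and chr8:61928014-61928063 for Ddx60. Those on the minus strand are chr4:156200861-156200910 for Isg15, chr12:26456543-26456592 for Rsad2, chr5:120777705-120777754 for Oas3 and chr8:71537567-71537616 for Bst2. The motif ended 43 bases before the start in Ddx60, 62 in Isg15, 75 in Ifit1 and 212 in Stat2. The 100 bases before the start of Trim25, at chr11:88999303-88999402 on the plus strand, are shown because Trim25 alone among the 41 did not pass the test for oxLDL below. They hold no core motif on either strand, and 1 match to the looser form on the opposite strand.
Trim25: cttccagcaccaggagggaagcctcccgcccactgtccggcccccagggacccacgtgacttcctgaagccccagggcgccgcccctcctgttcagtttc

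The first comparison asked how oxLDL changed these genes in mutant macrophages, the only genotype with 2 libraries on both sides. Of the 41 genes, 40 were lower with oxLDL and none was higher by the quasi-likelihood test of edgeR at a false discovery rate of 0.05, while 19.1% of all 12689 genes tested were lower and 16.5% higher. The median log2 fold change of the 41 was -2.42, a 5.37-fold lower level, against 0.01 over all genes tested. Among the 40, 25 were at least 4-fold lower, 17 at least 8-fold lower and 8 at least 16-fold lower. The summed level of all 41 was 7730 and 6249 CPM in the untreated mutant libraries and 1711 and 1683 CPM with oxLDL. In bulk RNA, fewer cells carrying a transcript and less of it per cell cannot be told apart.

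**Figure D1:**
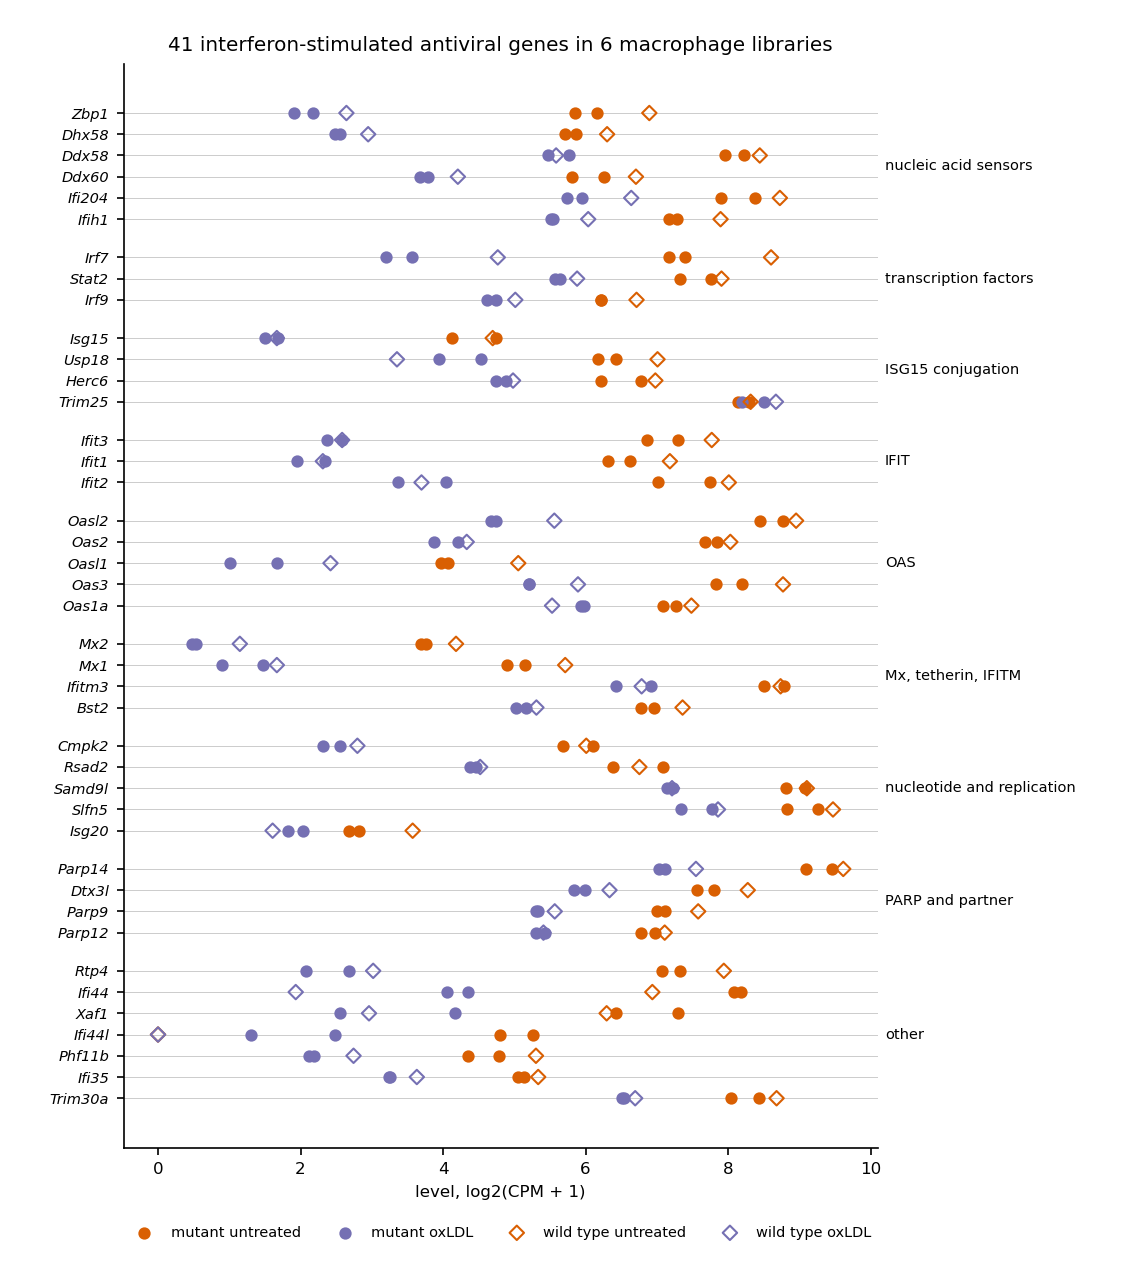
Level of each of the 41 genes in each of the 6 libraries, on a log2(CPM + 1) axis, grouped by role. Filled circles are mutant and open diamonds wild type, orange is untreated and purple oxLDL. In 39 of the 41 rows all 3 purple symbols lie left of all 3 orange ones, and the exceptions are Trim25 and Ifi44l.

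The 6 sensors of foreign or misplaced nucleic acid all fell. Zbp1, a Z-nucleic acid sensor that can start cell death, stood at 70.3 and 56.8 CPM in untreated mutant cells and at 2.77 and 3.53 CPM with oxLDL. Its log2 fold change was -4.35 ± 0.18 (SE; adjusted p = 0.000192), and the oxLDL libraries kept 4.96% of the untreated level. Dhx58, which encodes LGP2, a helicase that tunes the RIG-I-like receptors, was at 57.5 and 51.3 CPM without and 4.89 and 4.57 CPM with oxLDL, a log2 fold change of -3.53 ± 0.13. Ifih1, which encodes the sensor of long double-stranded RNA MDA5, moved least in this group, from 154 and 143 CPM to 45.5 and 44.9 CPM. Ddx58, which encodes RIG-I, the related helicase Ddx60 and the DNA-binding Ifi204 were 5.69-fold, 5.37-fold and 5.07-fold lower. A share of 13.2% of Ifi204's 75-base stretches also occurs in other genes, chiefly Ifi211, so its own level is uncertain.

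The 3 transcription factors of the pathway in the set fell as well. Irf7, the factor that carries the amplifying loop of interferon production, went from 167 and 143 CPM to 10.8 and 8.19 CPM in mutant cells. This was a log2 difference of -4.03 ± 0.17 (adjusted p = 0.000192), and the groups lay far apart. The ISGF3 subunits fell less, Stat2 from 216 and 160 CPM to 49.1 and 46.4 CPM and Irf9 from 73.5 and 73.4 CPM to 23.6 and 25.8 CPM. Their log2 fold changes were -1.99 ± 0.16 and -1.59 ± 0.10.

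Of the 4 genes of the Isg15 conjugation system, 3 fell. Isg15 itself was at 25.9 and 16.4 CPM in untreated mutant cells and at 2.20 and 1.84 CPM with oxLDL, a log2 fold change of -3.39 ± 0.28. Usp18, the protease that removes Isg15 and also dampens receptor signalling, went from 71.1 and 85.0 CPM to 14.3 and 22.2 CPM. Herc6, the mouse ligase for Isg15, was 3.39-fold lower, and 11.3% of its stretches are shared with other genes. Trim25, a ubiquitin and Isg15 ligase that acts on RIG-I, did not pass the test. Its levels were 312 and 280 CPM without and 292 and 362 CPM with oxLDL, so the groups overlapped, and its log2 fold change was 0.13 ± 0.14 (adjusted p = 0.497). Without mutant oxLDL replicate 2 that value was -0.027.

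The IFIT genes, whose proteins bind viral RNA ends and block translation, had the lowest role median, 25.3-fold lower. Ifit1 was at 97.5 and 78.3 CPM without and 4.08 and 2.88 CPM with oxLDL, a log2 fold change of -4.66 ± 0.21. Ifit3 went from 156 and 115 CPM to 5.01 and 4.17 CPM and Ifit2 from 213 and 128 CPM to 15.4 and 9.34 CPM. For Ifit2 the untreated libraries differed from each other most, and still lay above both oxLDL libraries. The level of Ifit3 is uncertain, because 41.1% of its stretches also occur in Ifit3b.

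The OAS genes make 2-5A, the messenger that switches on RNase L, or are catalytically inactive relatives. All 5 fell. Oasl2 was at 436 and 349 CPM in untreated mutant cells and at 24.5 and 25.7 CPM with oxLDL, a log2 fold change of -3.98 ± 0.15. Oas2 went from 230 and 204 CPM to 17.4 and 13.6 CPM. Oasl1, an inhibitor of Irf7 translation in mouse cells, was 9.74-fold lower, and Oas3 was 7.33-fold lower. Oas1a moved least, from 153 and 135 CPM to 60.4 and 62.1 CPM, and it shares 47.6% of its stretches with Oas1g, which was itself 7.16-fold lower.

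Genes acting on viral entry, capsids and release fell too. Mx2 was at 12.6 and 12.0 CPM without and at 0.448 and 0.397 CPM with oxLDL, and Mx1 went from 34.4 and 28.8 CPM to 0.856 and 1.79 CPM. Both encode dynamin-like GTPases that trap viral components, and their log2 fold changes were -4.85 ± 0.23 and -4.61 ± 0.31. Bst2, or tetherin, which holds budding virions at the cell surface, was 3.52-fold lower, from 123 and 108 CPM to 31.5 and 35.0 CPM. Ifitm3, which blocks fusion of incoming virus, was 3.96-fold lower.

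Among genes that limit viral replication, the nucleotide kinase Cmpk2 fell from 67.9 and 50.3 CPM to 4.85 and 3.97 CPM (log2 fold change -3.75 ± 0.20). Rsad2, or viperin, which makes a chain-terminating nucleotide, went from 135 and 82.6 CPM to 21.1 and 19.8 CPM. Samd9l and Slfn5 were 3.44-fold and 2.83-fold lower. The exonuclease gene Isg20 moved least of the 40, from 6.05 and 5.42 CPM to 2.53 and 3.08 CPM. Its log2 fold change of -1.05 ± 0.23 had an adjusted p of 0.0162, and the call was lost without untreated mutant replicate 1 (0.0759), without untreated mutant replicate 2 (0.0588) and in DESeq2 (0.0509).

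The ADP-ribosyltransferase genes and Dtx3l, the ubiquitin ligase that partners Parp9, fell over a narrow range of 2.92-fold to 4.71-fold. Parp14 was at 704 and 546 CPM without and 130 and 137 CPM with oxLDL, Dtx3l at 222 and 188 against 56.4 and 62.4 CPM, and Parp12 at 125 and 108 against 38.6 and 42.0 CPM. Parp9 was 3.44-fold lower.

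Of the other 7 genes, Rtp4, which encodes a Golgi chaperone, fell furthest of all 41. It went from 159 and 133 CPM to 5.42 and 3.23 CPM, a log2 difference of -5.07 ± 0.25 (adjusted p = 0.000275), so that 2.96% of the untreated level was left. Ifi44 went from 271 and 289 CPM to 15.6 and 19.4 CPM. Trim30a, a ubiquitin ligase that restrains Toll-like receptor signalling, moved least here, from 344 and 262 CPM to 92.4 and 89.8 CPM. Xaf1, which promotes apoptosis, was 10.9-fold lower but variable, at 156 and 85.0 CPM without and 17.0 and 4.87 CPM with oxLDL. Phf11b and Ifi35 were 6.71-fold and 3.92-fold lower. Shared stretches came to 26.8% in Phf11b and 10.5% in Rtp4.

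The size of the response was also set against the promoter motif. The median log2 fold change for oxLDL in the mutant was -2.42 over the 15 genes with the core motif and -2.63 over the 16 without it, given as a description.

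Markers of other states moved between the same libraries. All 24 mitotic genes examined were lower with oxLDL in the mutant, with a summed level of 3944 and 4085 CPM in untreated libraries and 1754 and 936 CPM with oxLDL. Of the 10 macrophage markers, 5 were lower and 2 higher, with a median log2 fold change of -0.97, and their sum went from 30587 and 24382 CPM to 19974 and 14896 CPM. In wild type that sum was 20859 CPM untreated and 10596 CPM with oxLDL. All 20 pancreatic genes were higher in mutant oxLDL, while in wild type the pancreatic sum was 275 CPM untreated and 1.86 CPM with oxLDL. The part of these differences in the results was not tested.

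In wild-type macrophages, with 1 library per treatment and no replicate check, 40 of the genes reached 5 CPM in one of the libraries. Of these, 39 were at least 2-fold lower with oxLDL and none was 2-fold higher, where 11.7% of the 9840 genes at that level were lower and 7.93% higher. The exception was Trim25, at 318 CPM untreated and 407 CPM with oxLDL, and the gene below the level was Ifi44l, with 0 counts in both libraries. Their median log2 fold change was -2.64, and 29 were at least 4-fold lower, 16 at least 8-fold lower and 7 at least 16-fold lower. Ifit3 went from 217 to 4.99 CPM, Ifit1 from 144 to 3.97 CPM, Rtp4 from 245 to 7.11 CPM and Ifi44 from 122 to 2.82 CPM. The summed level of the 41 genes was 9104 CPM untreated and 2049 CPM with oxLDL, a 4.44-fold lower level, compared with 4.12-fold in the mutant.

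With both genotypes in an additive model, 3 oxLDL libraries against 3 untreated, 40 of 41 genes were again lower, where 21.4% of all genes were lower. The median log2 fold change was -2.63. The comparison reuses the mutant libraries, so it is not independent of the first. In 39 of 41 genes all 3 oxLDL libraries lay below all 3 untreated libraries, which held for 22.8% of all genes tested.

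**Figure D2:**
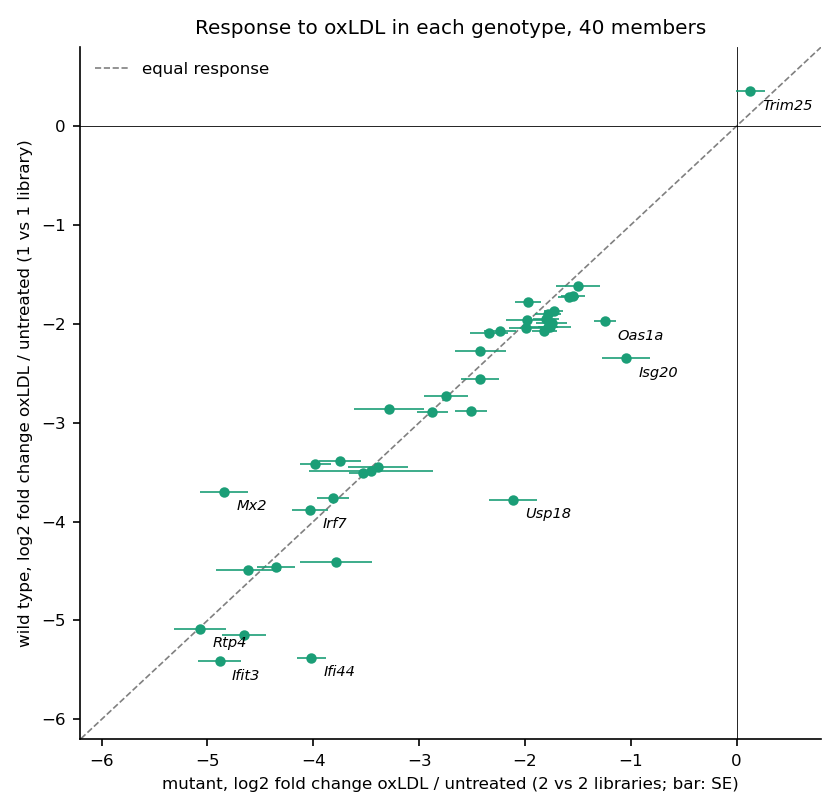
Log2 fold change oxLDL over untreated in the mutant (x axis, 2 against 2 libraries, bars are SE) and in wild type (y axis, 1 against 1 library, no error available) for the 40 genes other than Ifi44l, with a dashed line of equal response. Trim25 is the only point above 0 on either axis, and Usp18, Ifi44, Isg20 and Oas1a lie below the line, with the lower value in wild type.

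Whether the response to oxLDL differed between genotypes was tested as an interaction. None of the 41 genes passed in edgeR, which called 0.489% of all genes. In edgeR 5 of the 41 were under an unadjusted p of 0.05, as were 1393 of the 12689 genes. DESeq2 called 2 of the 41, and 221 over all genes. Of 40 genes with a value, 27 had the lower value in wild type and 13 in the mutant, and the differences ran from -1.03 to 1.68 on the log2 scale. Usp18 had the highest, 1.68 ± 0.39 (adjusted p = 0.228): in wild-type cells it stood at 128 CPM untreated and 9.22 CPM treated, beside the mutant values given above. Next were Ifi44 at 1.41 ± 0.26 (adjusted p = 0.145), Isg20 at 1.36 ± 0.40 and Oas1a at 0.73 ± 0.17. Mx2 had the lowest, -1.03 ± 0.39, with 17.2 CPM in wild type untreated and 1.22 CPM with oxLDL. DESeq2 called Usp18 (adjusted p = 0.0112) and Ifi44 (0.00743), and without mutant oxLDL replicate 1 edgeR called both, at adjusted p of 0.00686 and 0.0218.

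The second question was whether the level of these genes without oxLDL differed between genotypes. In untreated cells most of the 41 genes had a lower value in the mutant, and few of these differences passed the adjusted test. The median log2 fold change, mutant over wild type, was -0.47 against -0.01 over all genes, 37 of 41 values were below 0, and 34 genes were higher in the wild-type library than in both mutant libraries, where 43.4% of all genes were. By edgeR 3 were lower and 2 higher in the mutant, where 2.82% of all genes were lower and 4.24% higher (7.06% together). An unadjusted p under 0.05 was reached by 23 of the 41, and by 3436 of the 12689 genes. A difference of the same kind stood between the replicates: untreated mutant replicate 1 was above replicate 2 for 38 of the 41 genes, by a median of 0.27 on the log2 scale, where 50.8% of all genes were.

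Irf7 was the clearest of the lower genes. It stood at 388 CPM in wild type untreated against 167 and 143 CPM in the mutant, and with oxLDL at 26.3 CPM against 10.8 and 8.19 CPM. Its log2 fold change, mutant over wild type, was -1.31 ± 0.17 in untreated cells (adjusted p = 0.0209) and -1.46 ± 0.19 with oxLDL (adjusted p = 0.0546). With oxLDL it was called in 6 alternatives: library size only (adjusted p = 0.0356), no low-count filter, DESeq2, without mutant oxLDL replicate 1 (0.00607) or replicate 2 (0.008), and the replicate block (0.00928). Zbp1 was at 118 CPM in wild type untreated against 70.3 and 56.8 CPM, a log2 difference of -0.88 ± 0.18 (adjusted p = 0.0428). Ifih1 was at 237 CPM against 154 and 143 CPM, a log2 difference of -0.67 ± 0.11 (adjusted p = 0.03). The wild-type side of each of these is 1 library. The calls of all 3 were lost when either untreated mutant library was left out: Irf7 then had an adjusted p of 0.0653 without replicate 1 and 0.0567 without replicate 2. The call for Zbp1 was also lost with upper quartile factors (0.0504) and with library size only (0.05). Over the 12 alternatives adjusted p ran up to 0.0653 for Irf7, 0.119 for Zbp1 and 0.0863 for Ifih1.

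**Figure D3:**
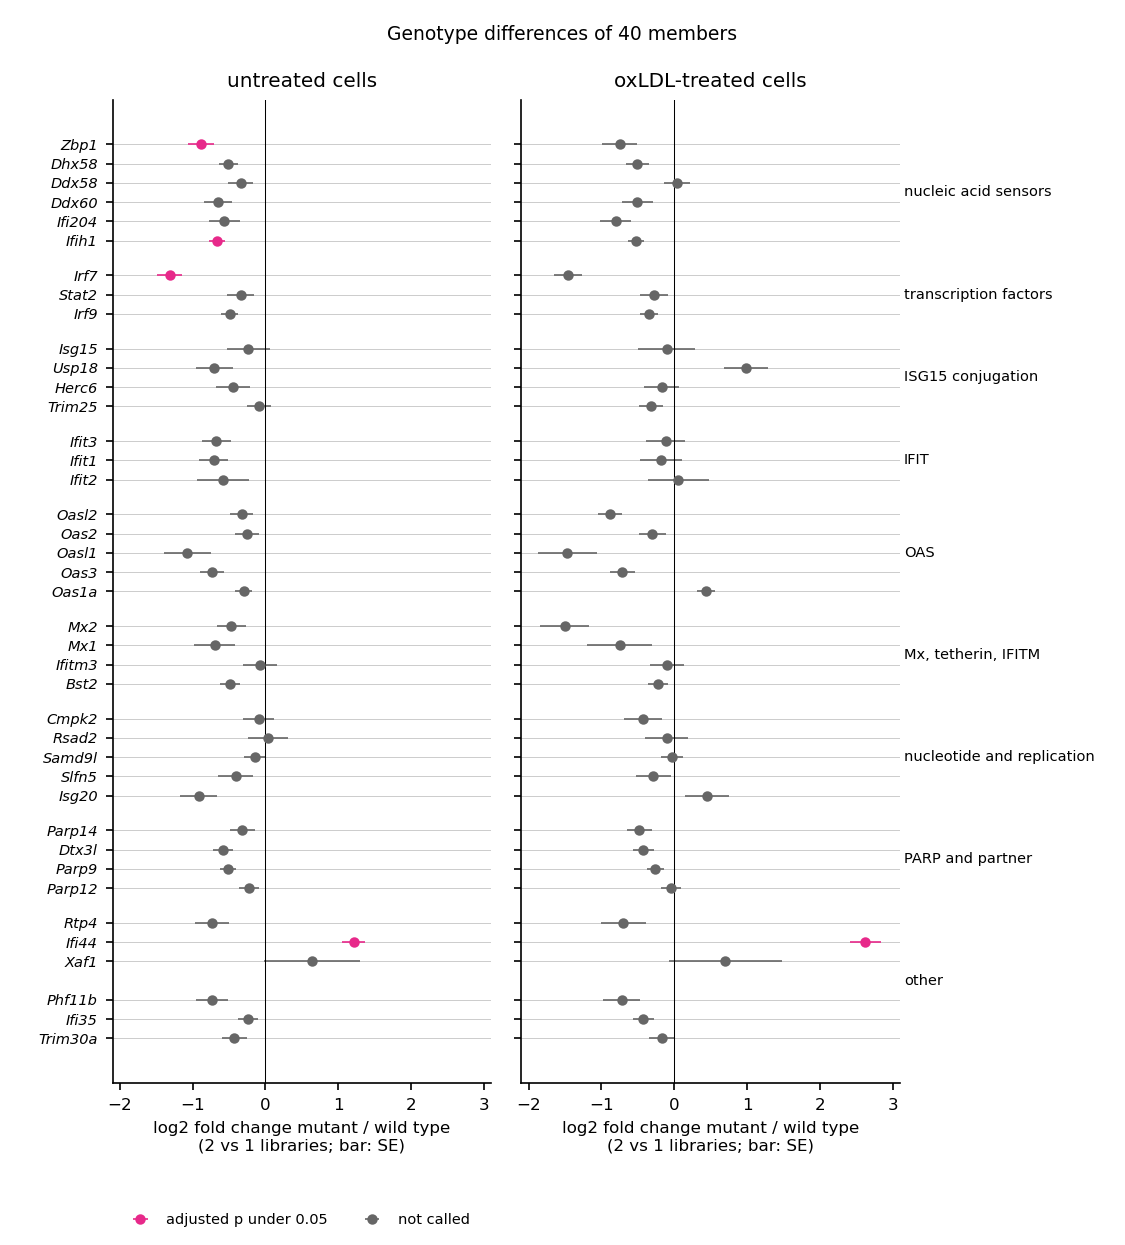
Log2 fold change mutant over wild type (x axis, 2 against 1 libraries, bars are SE) for the 40 genes other than Ifi44l, in untreated cells (left) and in oxLDL-treated cells (right), grouped by role, with called genes in pink. Most points lie left of 0 in untreated cells, and Ifi44 lies right of 0 in both panels.

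With oxLDL the median genotype difference of the 41 was -0.29, beside -0.47 in untreated cells, and 0.01 over all genes. This order was not kept without untreated mutant replicate 2, where the medians were -0.28 with oxLDL and -0.26 in untreated cells. Of the 41, 27 were higher in the wild-type library than in both mutant libraries, where 37.2% of all genes were, and 1 was called, Ifi44, where 0.481% of all genes were. Oasl1 at 4.35 CPM in wild type against 1.02 and 2.19 CPM in the mutant, and Oasl2 at 46.2 against 24.5 and 25.7 CPM, were not called (adjusted p = 0.203 and 0.101). Both were called with no low-count filter (0.00202 and 0.00022) and without mutant oxLDL replicate 2 (0.0061 and 0.0484), and Oasl2 also in DESeq2 (0.00142). Usp18 lay the other way, at 9.22 CPM in wild type against 14.3 and 22.2 CPM in the mutant (adjusted p = 0.235), and was called with no filter (0.00249) and without mutant oxLDL replicate 1 (0.0196). Across both treatments, 4 mutant against 2 wild-type libraries, 5 genes were lower and 2 higher in the mutant, where 1.51% of all genes were lower and 2.54% higher (4.05% together). The lower ones were Irf7 (-1.38 ± 0.13, adjusted p = 0.0122), Zbp1 (-0.83 ± 0.14, 0.0383), Oas3 (-0.72 ± 0.12, 0.0344), Ifih1 (-0.59 ± 0.08, 0.0276) and Dhx58 (-0.51 ± 0.10, 0.048). None of these calls remained without untreated mutant replicate 1 or without replicate 2, and 0 of the 41 were called in either case. Over all genes 5 and 8 were called in these fits, in place of 514. Without wild type untreated, which leaves 1 wild-type library, the median over the 41 was -0.28, against -0.35 with all 6 libraries. Over 14 alternatives Irf7 was called in 12, Zbp1 and Ifih1 in 9, Oas3 in 8 and Dhx58 in 5.

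The untreated libraries of the 2 genotypes also differed in other transcripts. The pancreatic sum was 275 CPM in wild type against 3.07 and 3.45 CPM in the mutant, with 18 of 20 genes lower in the mutant. The sum of 9 neutrophil markers was 47.8 CPM against 13.8 and 12.1 CPM, with 4 of the 5 tested lower in the mutant (S100a8, S100a9, Ltf and Ngp). Mitotic genes summed to 1208 CPM in wild type against 3944 and 4085 CPM, with 6 of 24 higher in the mutant. The part of these differences in the genotype results was not tested.

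Ifi44 and its neighbour Ifi44l were the genes called higher in the mutant. In all, 4 of the 41 genotype values were above 0 in untreated cells and 8 with oxLDL. Ifi44, an interferon-induced cytoplasmic protein gene, stood at 271 and 289 CPM in mutant untreated against 122 CPM in wild type, and at 15.6 and 19.4 CPM in mutant oxLDL against 2.82 CPM. Mutant over wild type, its log2 fold change was 1.21 ± 0.16 in untreated cells (adjusted p = 0.0203) and 2.62 ± 0.22 with oxLDL (adjusted p = 0.0234). The untreated call was lost without untreated mutant replicate 1 (0.0717) or replicate 2 (0.054), and the oxLDL call without untreated mutant replicate 2 (0.0502). Across treatments it was 1.69 ± 0.30 (adjusted p = 0.0399), and was called in 10 of 14 alternatives.

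Ifi44l gave 307 and 532 counts in mutant untreated, 36 and 93 in mutant oxLDL, and 0 in both wild-type libraries. In CPM these were 26.9, 37.5, 1.47 and 4.62. Against a floor of 3 counts per wild-type library, the mutant mean was at least 209-fold higher in untreated cells and at least 15.8-fold higher with oxLDL, bounds that cover counting error only. The gene was called in untreated cells (adjusted p = 0.0188) and across treatments (0.0244), and the untreated call was lost without untreated mutant replicate 1 (0.0576). Across treatments it was called in 11 of 14 alternatives. Within the mutant it fell with oxLDL like the rest of the set, by 3.44 on the log2 scale (adjusted p = 0.00434). Only 4 genes of the whole table had 0 counts in both wild-type libraries and at least 10 in each mutant library: Ifi44l, Itgad, Klra1 and Klra22. None had the reverse pattern.

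The genes on either side of this pair were chosen for description after these values were seen. Adgrl4, next to Ifi44 and encoding an adhesion receptor, stood at 7.45 and 7.18 CPM in mutant untreated, 9.50 and 4.97 CPM with oxLDL, and in wild-type cells at 0.154 CPM untreated and 0.384 CPM treated. It was called in untreated cells (adjusted p = 0.0203) and is not part of the antiviral set. Gipc2, on the far side of Ifi44l, was at 1.31 and 1.27 CPM in mutant untreated against 0.154 CPM in wild type and was not called (adjusted p = 0.0932). Prkacb and Fubp1, further out on either side, were not called between genotypes in untreated cells (adjusted p = 0.379 and 0.677). Dnajb4 and Miga1, on the side of Fubp1, were called higher in the untreated mutant, by 0.86 and 1.03 on the log2 scale (adjusted p = 0.03 and 0.0325). Whether sequence at this locus differs between the animals of the 2 genotypes was not tested.

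**Figure D4:**
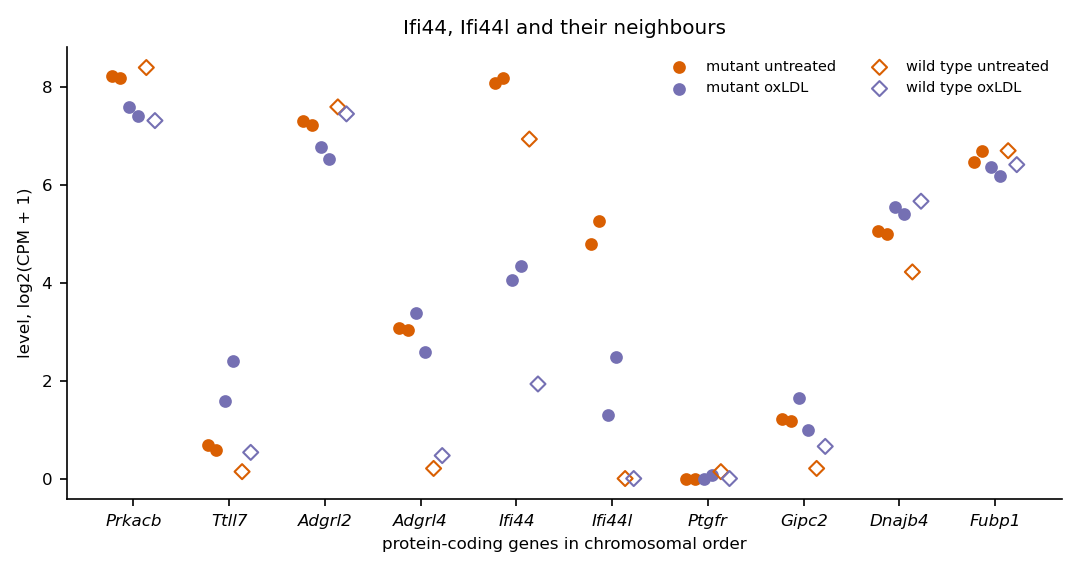
Level of Ifi44, Ifi44l and neighbouring protein-coding genes in chromosomal order, on a log2(CPM + 1) axis, in the 6 libraries. Adgrl4, Ifi44 and Ifi44l are higher in mutant (filled) than in wild type (open) under both treatments. So are Ttll7 and Gipc2, at low levels that did not exceed 4.27 CPM.

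The rest of the pathway was described from lists of ligands, receptors, adaptors, regulators and relatives. Interferon transcripts themselves were at the limit of detection. Of 21 type I, II and III interferon genes in the table, 18 had 0 counts in all 6 libraries, and the largest count in any library was 3. Ifnb1 had 2 counts in mutant untreated replicate 1 and 0 elsewhere, where 3 counts correspond to between 0.122 and 0.263 CPM.

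The receptor and its kinases moved little beside the effector genes. Of 9 receptor and signalling genes, 4 were lower and 1 higher with oxLDL in the mutant, with a median log2 fold change of -0.32. Ifnar1 was at 244 and 230 CPM without and 168 and 169 CPM with oxLDL, a log2 difference of -0.50 ± 0.09 (adjusted p = 0.00808). Ifnar2 was at 125 and 113 CPM against 111 and 112 CPM and was not called (adjusted p = 0.424). The kinase Jak1 was higher, at 381 and 377 CPM with oxLDL against 297 and 272 CPM (0.40 ± 0.10, adjusted p = 0.0247), a call lost without untreated mutant replicate 2 (0.108) or either oxLDL replicate (0.0792 and 0.0738). Tyk2 was not called (adjusted p = 0.057). Ifngr1, a subunit of the interferon gamma receptor, was 2.09-fold lower.

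Among 22 genes of nucleic acid sensing and its adaptors, 13 were lower and 2 higher. Trex1, the exonuclease that clears cytosolic DNA, fell from 62.0 and 55.8 CPM to 6.03 and 6.46 CPM. Its own level is uncertain, because 93.4% of its stretches also occur in Atrip. Ikbke, a kinase that activates Irf3 and Irf7, was 4.88-fold lower, the DNA-sensing receptor gene Tlr9 4.93-fold and the adaptor gene Myd88 3.06-fold. The genes that rose were Traf6 and Irak1, which act downstream of Myd88, at 1.59-fold and 1.51-fold. Of the 6 other interferon regulatory factor genes tested, Irf1, Irf2 and Irf5 were lower, and none was higher. Irf3, the constitutive factor that starts interferon induction, was at 23.7 and 29.1 CPM without and 23.9 and 27.4 CPM with oxLDL (adjusted p = 0.779). The call for Irf2 was lost without untreated mutant replicate 1 (adjusted p = 0.0715).

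Of 15 negative regulators, 6 were lower and none was higher. Socs3, an inhibitor of cytokine receptor signalling, was 9.66-fold lower, the phosphatase gene Ptpn6 3.56-fold and Tnfaip3, or A20, 1.89-fold. Of 47 relatives of the 41 genes, 31 were lower and 2 higher, with a median log2 fold change of -1.19. Mnda and Mndal, of the same family as Ifi204, were 8.20-fold and 4.71-fold lower. For Mndal 11.1% of the stretches are shared with other genes, and for Mnda no share could be given. Parp16 and Parp6 were higher at 1.82-fold and 1.56-fold, and both calls were lost with either untreated mutant library left out, without mutant oxLDL replicate 2 and in DESeq2, at adjusted p from 0.0624 to 0.154. Of 47 further interferon-stimulated genes, 35 were lower and 1 higher, with a median of -1.34. Ly6e was 7.39-fold lower, from 614 and 644 CPM to 85.3 and 86.6 CPM, and Sp100, Helz2 and Tor3a were 4.09-fold, 3.84-fold and 2.72-fold lower. Ifi27 was the gene that rose, from 13.1 and 12.1 CPM to 25.8 and 19.0 CPM, a call lost without either untreated mutant library (adjusted p = 0.0687 and 0.107). In wild type it went from 7.58 to 19.3 CPM.

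**Figure D5:**
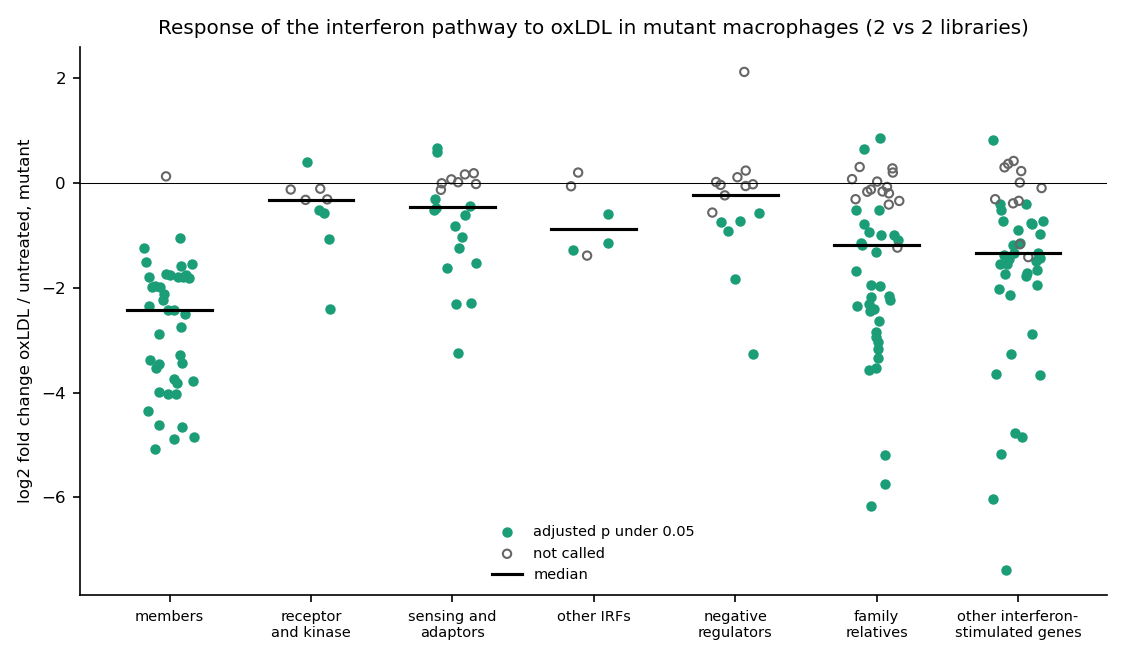
Log2 fold change oxLDL over untreated in the mutant (y axis, 2 against 2 libraries) for each tested gene of the 41 and of 6 further lists. Filled points have an adjusted p under 0.05, open points do not, and bars are medians. The median is -2.42 for the 41 genes and lies between -0.23 and -1.34 for the other lists.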

How the data were processed

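RNA was measured in 6 libraries of 4 groups, made from 250 ng RNA with a stranded kit for polyadenylated RNA and read as paired ends of 150 bases, per the labels' protocols. The authors deposited expected counts per gene, estimated with RSEM 1.2.15 from Bowtie2 2.1.0 alignments, per the submitters' processing notes. A second deposited table holds a normalised signal, for which the notes name edgeR. Its values were whole multiples of 1 read (100% within 0.001 reads), and the reads recovered matched the rounded counts for at least 99.892% of genes. The notes name hg19, a human build, while the genes carry mouse names. The mouse build is not given in these sources. Printed coordinates are RefSeq's.

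Expected counts were rounded. The 12689 of 24054 genes kept by filterByExpr were tested with edgeR's quasi-likelihood test (version 4.0.16 in R 4.3.3), TMM factors and Benjamini-Hochberg adjustment over all of them, at a false discovery rate of 0.05. Contrasts of 4 group means gave the oxLDL response of the mutant, genotype within each treatment and the interaction, with the single wild-type libraries assumed to vary like the mutant pairs. An additive model gave oxLDL across genotypes and genotype across treatments. An approximate SE was taken as the absolute log2 fold change over the root of F. Wild type alone was described by size, with a prior count of 2. RSEM divides reads between similar genes, so mouse transcripts were searched for 75-base stretches that a gene shares with others, and 6 of the 41 shared over 10%.

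The 41 genes and the other lists were chosen with earlier results of these data known. Genes given in every library were, within each role, the 2 with the largest and the 1 with the smallest change, up to 4 in each direction for genotype and interaction, and up to 4 per pathway list in each direction. A gene that this rule names is not reported here. Alternatives changed the normalisation, the low-count filter, the tool (DESeq2 1.42.0), the replicate block and each library in turn. Added after seeing the data were TMM factors over all genes and the test on the recovered reads, which called 4515 genes for oxLDL in the mutant, as many as the rounded counts did.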

Additional observations from a re-analysis of the deposited data

How the results depend on the processing

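The response to oxLDL kept its direction and count under every alternative run: 39 or 40 of the 41 genes were called in the mutant, 40 across genotypes, and 39 past 2-fold in wild type. In the mutant 39 of the 40 lower genes were called in all 13 alternatives, and Isg20 in 10 of them. The genotype counts did not keep. In untreated cells 5 were called, but 23 with no low-count filter, 8 in DESeq2 and 0 to 19 with 1 mutant library left out. In oxLDL-treated cells 1 was called, but 2 with library size only, 11 with no filter, 6 in DESeq2 and 0 to 5 with 1 library left out. Across treatments 7 were called, but 17 with no filter, 17 in DESeq2 and 0 to 7 with 1 library left out. For the interaction 0 were called, but 3 with no filter, 2 in DESeq2 and 0 to 2 with 1 library left out, while its median of 0.12 ran from -0.071 without untreated mutant replicate 2 to 0.26. Counts over all genes moved too, and with 1 library left out they moved in either direction, as the counts of the 41 did in untreated cells. For genotype in untreated cells 896 genes were called, 2435 with no filter and 1301 in DESeq2. With oxLDL they were 61, 974 and 393 in the same order. Across treatments they were 514, 1387 and 1500, and for the interaction 62, 546 and 221. The cause of these changes was not tested. The stricter promoter motif was found in 9 genes in place of 15.

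The replicate numbers of the mutant libraries form only 2 pairs, and the labels do not say what they share. Replicate differences correlated across treatments at r = 0.20 over 12689 genes and at r = 0.67 over the 41, which are not independent replicates. With the replicate block, 13 of the 41 were called for genotype in untreated cells, 3 with oxLDL, 2 across treatments and 2 for the interaction. Over all genes the block gave 1870, 462, 344 and 162 calls in the same order, in place of 896, 61, 514 and 62. The counts of the 41 for the response to oxLDL did not change.

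Single genes that changed sign when 1 library was left out are given by their range over such fits. For oxLDL in the mutant, Irf3 ran from -0.19 to 0.099 (0.036 without mutant oxLDL replicate 1) and Trim25 from -0.027 to 0.28. For genotype, Rsad2 in untreated cells ran from -0.36 to 0.34, Xaf1 with oxLDL from -0.48 to 1.33, and Oas1a across treatments from -0.30 to 0.44 (-0.0095 without mutant oxLDL replicate 2). The interaction of Oasl1 ran from -1.0 to 0.079. Over all genes, 2598 in place of 4515 were called for oxLDL in the mutant without untreated mutant replicate 2, and for genotype in untreated cells 93 in place of 896 without untreated mutant replicate 1 and 2435 with no filter. Ifi44l had 0 counts in both wild-type libraries, where depth set only the size of the bounds given above. The interferon genes lay at or under 3 counts in every library.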
